A study of Homo sapiens with 4 samples.

Results

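The melanoma antigen (MAGE) genes encode proteins that share a MAGE homology domain, and 10 of them were followed here among the 48162 genes of a count table: MAGEB2, MAGEA3, MAGEA6, MAGEA12, MAGEA4, MAGEA10, MAGEC1, MAGEC2, MAGED1 and MAGED2. They were chosen by symbol from earlier results of the same comparison, so their differences between groups are described and carry no test. The 8 MAGE-A, -B and -C genes are cancer-testis antigens, and the 2 MAGED genes are broadly expressed relatives listed for contrast. RNA was sequenced from cells labelled as the human breast cancer line MDA-MB-453, in 2 wild-type (WT) libraries and 2 libraries labelled TMEM9 KD. TMEM9 is a membrane protein of lysosomes and endosomes. The labels do not say how TMEM9 was reduced, whether the cells were a clone or a pool, or what control treatment the wild-type cells received. Differences from any of these cannot be told apart from an effect of TMEM9.

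Type I MAGE genes (MAGE-A, -B and -C) lie on the X chromosome, are active mainly in male germ cells, and are kept silent in most adult tissues by DNA methylation of their promoters. Many tumours express some of them again, which has made their products targets of cancer vaccines and T cells. Type II genes, among them the MAGED genes and NDN, are expressed in many tissues. Many MAGE proteins bind E3 RING ubiquitin ligases and can change which proteins these ligases act on.

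Promoter sequences from RefSeq (GRCh38.p14) are shown first because related MAGE genes with similar promoters had different values. Each is the 250 bases before an annotated transcription start, read 5′ to 3′ on the gene's strand. The word CCGGATGT is in capitals. It was picked after the sequences were seen, and its core GGAT is the kind that ETS factors bind.
MAGEB2, chrX:30215313-30215562, plus strand: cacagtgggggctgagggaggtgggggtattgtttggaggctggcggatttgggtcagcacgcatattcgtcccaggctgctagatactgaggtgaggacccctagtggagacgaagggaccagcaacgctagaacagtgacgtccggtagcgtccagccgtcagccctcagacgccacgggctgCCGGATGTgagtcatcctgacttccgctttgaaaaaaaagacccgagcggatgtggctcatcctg
MAGEB1, the second start, chrX:30246896-30247145, plus strand: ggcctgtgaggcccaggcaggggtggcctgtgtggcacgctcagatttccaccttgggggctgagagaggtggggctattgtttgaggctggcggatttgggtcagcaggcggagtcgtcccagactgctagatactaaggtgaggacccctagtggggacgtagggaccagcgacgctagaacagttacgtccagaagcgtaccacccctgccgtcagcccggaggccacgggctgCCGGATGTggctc
MAGEA3, chrX:152698544-152698793, plus strand (the MAGEA6 promoter, chrX:152769690-152769939, minus strand, has the same letters): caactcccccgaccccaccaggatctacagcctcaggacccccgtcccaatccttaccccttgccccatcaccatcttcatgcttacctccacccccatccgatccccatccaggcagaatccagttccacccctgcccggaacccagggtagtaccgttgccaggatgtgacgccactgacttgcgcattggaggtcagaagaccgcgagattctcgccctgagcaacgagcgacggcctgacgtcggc
MAGEA12, the first start, chrX:152733507-152733756, plus strand: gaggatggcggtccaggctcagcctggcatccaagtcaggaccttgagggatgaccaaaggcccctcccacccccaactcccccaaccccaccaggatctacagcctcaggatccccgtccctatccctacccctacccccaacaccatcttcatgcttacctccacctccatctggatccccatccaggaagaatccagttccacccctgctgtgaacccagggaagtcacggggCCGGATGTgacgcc
MAGEC1, chrX:141903644-141903893, plus strand: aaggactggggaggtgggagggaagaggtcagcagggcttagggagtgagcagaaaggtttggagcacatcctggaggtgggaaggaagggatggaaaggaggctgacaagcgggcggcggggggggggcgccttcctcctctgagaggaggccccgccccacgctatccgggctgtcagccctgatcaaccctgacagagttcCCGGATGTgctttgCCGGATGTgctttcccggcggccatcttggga
MAGEC2, chrX:142205291-142205540, minus strand: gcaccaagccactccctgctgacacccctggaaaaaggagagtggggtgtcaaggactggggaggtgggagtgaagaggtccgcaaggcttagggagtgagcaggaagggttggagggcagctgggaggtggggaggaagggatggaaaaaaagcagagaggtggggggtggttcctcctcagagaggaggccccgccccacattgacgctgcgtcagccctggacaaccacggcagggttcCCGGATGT
MAGED1, the second start, chrX:51893373-51893622, plus strand: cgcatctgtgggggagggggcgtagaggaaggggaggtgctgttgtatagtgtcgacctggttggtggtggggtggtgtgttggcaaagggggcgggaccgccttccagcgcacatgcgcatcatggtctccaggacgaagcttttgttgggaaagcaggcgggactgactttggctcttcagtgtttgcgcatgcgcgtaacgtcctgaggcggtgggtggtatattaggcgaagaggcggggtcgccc

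The RefSeq table held promoters for 9 of the 10 genes, in 16 windows. On either strand, CCGGATGT was present in 10 of these 16 windows, from 5 genes: MAGEB2, MAGEA4, MAGEA12, MAGEC1 and MAGEC2. Of all 35114 promoter windows of that length, 0.592% held it. MAGEC1 had 2 copies. The windows of MAGEA3, MAGEA6, MAGED1 and MAGED2 had none, which says only that these letters are not in them. The shorter core GGAT does occur in the MAGEA3 and MAGEA6 windows. CCGGAA, also searched for, had 1 copy in each of these 2 windows, and 14.5% of all windows held it. Another word, ATGTGACG, which overlaps CCGGATGT in MAGEA12, was found in MAGEA3, MAGEA6 and MAGEA12, against 0.365% of all windows. Windows of related genes are partly copies of each other, so they are not separate finds and none of these comparisons is a test. MAGEB2 and the second MAGEB1 start matched at 173 of 200 aligned bases (86.5%), MAGEC1 and MAGEC2 at 169 of 215 (78.6%), and MAGEA3 and MAGEA12 at 157 of 177 (88.7%). MAGEA3 and MAGEA6 matched at all 250 bases. The numbers of CpG dinucleotides, the sites that DNA methylation acts on, were 15 in MAGEB2, 15 in MAGEA3 and MAGEA6, 11 in MAGEC1 and 6 in MAGEC2. Where a gene had several windows they were 5 and 13 in MAGEA12, 6 and 17 in MAGED1, 6 and 8 in MAGED2, and 6 to 14 in MAGEA4. The median over all promoters was 11. DNA methylation was not measured in these libraries.

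The libraries held 15323843 and 18517337 counts for WT and 15960941 and 17065126 for TMEM9 KD. TMEM9 itself had 1120 and 1497 counts in WT and 51 and 78 in TMEM9 KD, a log2 fold change of -4.37 (SE 0.126, adjusted p = 4.12e-52, edgeR quasi-likelihood F test with Benjamini-Hochberg adjustment over 14923 genes). By that test 28.7% of genes were higher and 29% lower in TMEM9 KD. Since nothing in the labels names separate cultures, the p-values reflect only how far libraries of 1 group lay apart, which may be technical spread. Of 13 markers of MDA-MB-453 and luminal apocrine epithelium, ERBB2, KRT8 and KRT18 were among those present, but EPCAM had at most 9 counts in a library, KRT19 at most 6, TFAP2B at most 4 and SPDEF at most 2, against what the cell line label leads one to look for. Per library, the summed level of 6 basal epithelial markers was 764 and 769 CPM (counts scaled to the library total, here without further factors) in WT and 481 and 477 in TMEM9 KD, with KRT5 and KRT14 at 0 counts in both TMEM9 KD libraries. Most of each sum was ITGA6, at 491 and 495 CPM against 442 and 441. The other markers fell further, with TP63 at 152 and 150 against 34.4 and 32.2 CPM and ITGB4 at 99.6 and 98.6 against 3.13 and 2.23. For 8 leukocyte markers the summed level was 221 and 226 CPM against 12.2 and 13.8, with CD3E and CD52 at 0 in all libraries. For 8 fibroblast markers it was 1787 and 1812 against 1419 and 1600 CPM, with no gene at 0 throughout. That list did not move together: COL3A1 went from 14163 and 17366 counts to 454 and 602, and COL1A1 from 12189 and 14958 to 21283 and 25716. The labels give both groups as the same cell line. Whether they come from the same cells was not tested, and a difference in origin could not be told apart from an effect of TMEM9 in any fold below. The part of these wider differences in the MAGE values was likewise not tested.

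MAGEB2, a testis MAGE that lowers production of the stress granule protein G3BP1, was at the edge of detection in WT and among the more abundant MAGE transcripts in TMEM9 KD. It had 1 and 0 counts in the WT libraries and 678 and 781 in the TMEM9 KD libraries. In CPM scaled by edgeR's TMM factors, the scale used for single genes from here on, these were 0.0669 and 0 against 41.4 and 44.7. The ratio of TMEM9 KD to WT was 1420, with an exact Clopper-Pearson 95% interval of 254.5 to 56130 that covers counting error only. The upper end is wide because a single WT count sets it, and the fitted log2 fold change of 10.15 moved to 12.54 without WT replicate 1 and 9.17 without WT replicate 2. No 50-base word of its transcripts occurred in another gene, so other genes' reads of that length would not match it perfectly. In bulk RNA, fewer cells with a transcript and less of it per cell cannot be told apart.

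MAGEA3 and MAGEA6 are near copies whose proteins bind the ligase TRIM28 and direct it to the energy sensor AMPK. MAGEA3 was at 27.9 and 29.1 CPM in WT and 100.4 and 96.2 CPM in TMEM9 KD, so that the groups lay far apart. Its fitted log2 fold change was 1.78 (SE 0.0837), or 3.44-fold higher. MAGEA6 was at 66.4 and 61.4 CPM in WT and 76.6 and 86.8 CPM in TMEM9 KD. These groups did not overlap either, but the difference was small, with a log2 fold change of 0.36 (SE 0.0777), or 1.28-fold. MAGEA3 made up 29.6% (exact 95% interval 27.2 to 32.0) and 32.2% (29.9 to 34.5) of the joint MAGEA3 and MAGEA6 counts in WT. In TMEM9 KD it made up 56.7% (54.9 to 58.5) and 52.6% (50.8 to 54.3), so the more abundant of the pair changed from MAGEA6 to MAGEA3. In GENCODE 29 transcripts, 56.5% of the distinct 50-base words of MAGEA3 and 53.9% of those of MAGEA6 occurred in another gene, mostly in each other. At 100 bases these shares were 34.9% and 33.0%. How the counting treated reads that match both genes is not stated, so the division between them is uncertain.

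MAGEA12, a neighbour of both on the X chromosome whose product is also a T-cell target, showed no separation of the groups. Its levels were 66.7 and 70.9 CPM in WT and 67.9 and 68.7 CPM in TMEM9 KD, and both TMEM9 KD values lay between the WT values. The log2 fold change was -0.01 (SE 0.0774), and its sign changed when library size alone was used for scaling. Of its 50-base words 13.8% occurred in another gene. MAGEA2B, MAGEA3, MAGEA6 and MAGEA12 were also added together, so that it does not matter which of these 4 rows a counted read was given to. The sum was 163.9 and 166.5 CPM in WT and 249.4 and 259.3 CPM in TMEM9 KD, a log2 fold change of 0.62. If reads that match several genes were discarded, the sum lacks them. It also lacks MAGEA2, which has no row.

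**Figure D1:**
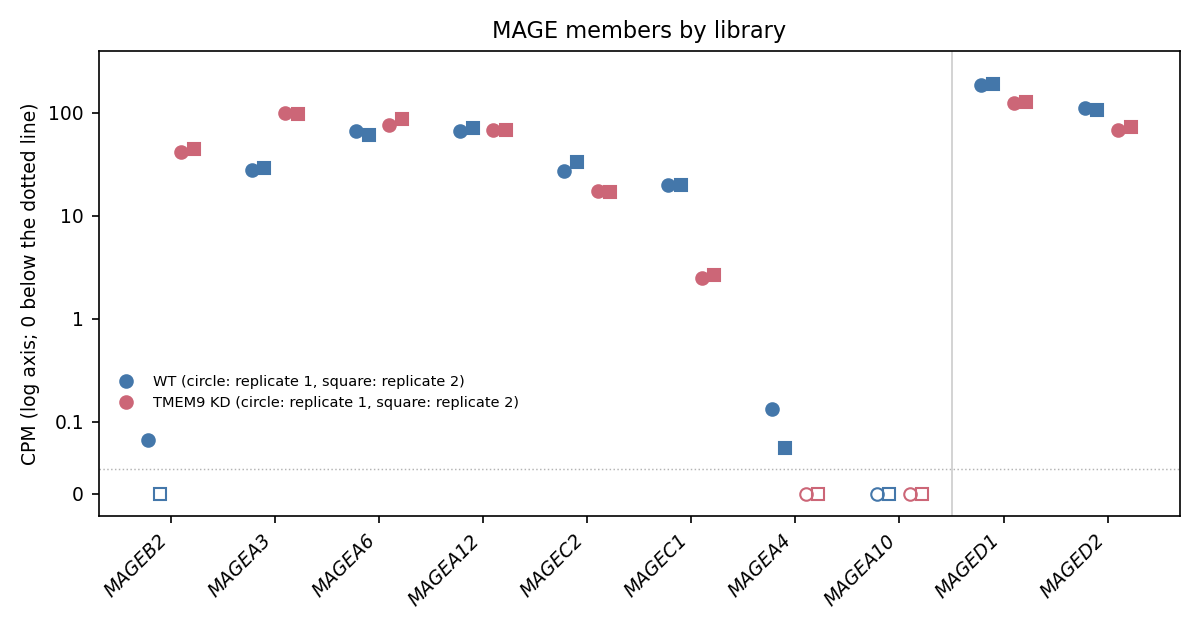
Level of each of the 10 MAGE genes in each library, in CPM on a log axis, with 0 drawn below the dotted line; circles are replicate 1 and squares replicate 2 of WT (blue) and TMEM9 KD (red), open where the count is 0. MAGEB2 goes from 0.0669 and 0 to 41.4 and 44.7 CPM, MAGEA12 overlaps between the groups, and the MAGEC and MAGED genes are lower in TMEM9 KD.

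MAGEA4 and MAGEA10, which are targets of engineered T cells, were at or near 0. MAGEA4 had 2 and 1 counts in WT and 0 and 0 in TMEM9 KD, too few for a fold. MAGEA10 had 0 counts in all 4 libraries, which allows at most 0.162 to 0.196 CPM at 3 counts per library, scaled to the library total alone. These were the 2 genes under the filter on low counts. In these cells MAGEA3 and MAGEA6 were thus abundant beside members of the same X-linked family that were not detectable or nearly so.

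The MAGEC genes were lower in TMEM9 KD, by very different amounts. MAGEC1, an antigen best known from myeloma, was at 19.997 and 19.916 CPM in WT and 2.50 and 2.64 CPM in TMEM9 KD. The groups lay far apart, with a log2 fold change of -2.95 (SE 0.180), or 7.74-fold lower. MAGEC2, which binds TRIM28 and raises its ligase activity, was at 27.0 and 32.9 CPM in WT and 17.4 and 17.1 CPM in TMEM9 KD. Its groups also did not overlap, with a smaller log2 fold change of -0.80 (SE 0.115), or 1.74-fold lower. Fewer than 1% of the 50-base words of MAGEC1 (0.383%) and of MAGEC2 (0.0515%) occurred in another gene.

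MAGED1 and MAGED2, which most tissues express, were abundant in all 4 libraries and moderately lower in TMEM9 KD. Their relatives MAGED4 and MAGED4B had 0 counts in every library, and 99.0% and 96.3% of the 50-base words of these copies occurred in another gene. MAGED1, which binds the neurotrophin receptor NGFR, was at 185 and 189 CPM in WT and 123 and 126 CPM in TMEM9 KD. The groups did not overlap, with a log2 fold change of -0.58 (SE 0.0640), or 1.499-fold lower. MAGED2, whose loss causes a transient antenatal Bartter syndrome, was at 110.0 and 106.6 CPM in WT and 68.0 and 72.9 CPM in TMEM9 KD. The groups were apart here too, and MAGED2 was 1.537-fold lower, with a log2 fold change of -0.62 (SE 0.0727), close to the value of MAGED1.

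Of the 10 genes, 8 passed the filter. In 3 of these (MAGEB2, MAGEA3 and MAGEA6) both TMEM9 KD libraries lay above both WT libraries, and in 4 (MAGEC1, MAGEC2, MAGED1 and MAGED2) both lay below. MAGEB2 passed the filter only through its TMEM9 KD libraries, so it could enter the 8 only as a gene that was higher. Over all 14923 genes tested, 39.1% lay above and 38.5% below without overlap, so separation alone sets nothing apart here. The median log2 fold change of the 8 was -0.30 and that of all genes tested 0.01. By size, MAGEB2 and MAGEA3 were over 2-fold higher and MAGEC1 over 2-fold lower, where the 4 MAGEA rows that share reads gave 1.54-fold as a sum, while 7.24% of all genes were called at least 2-fold higher and 10.1% at least 2-fold lower.

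**Figure D2:**
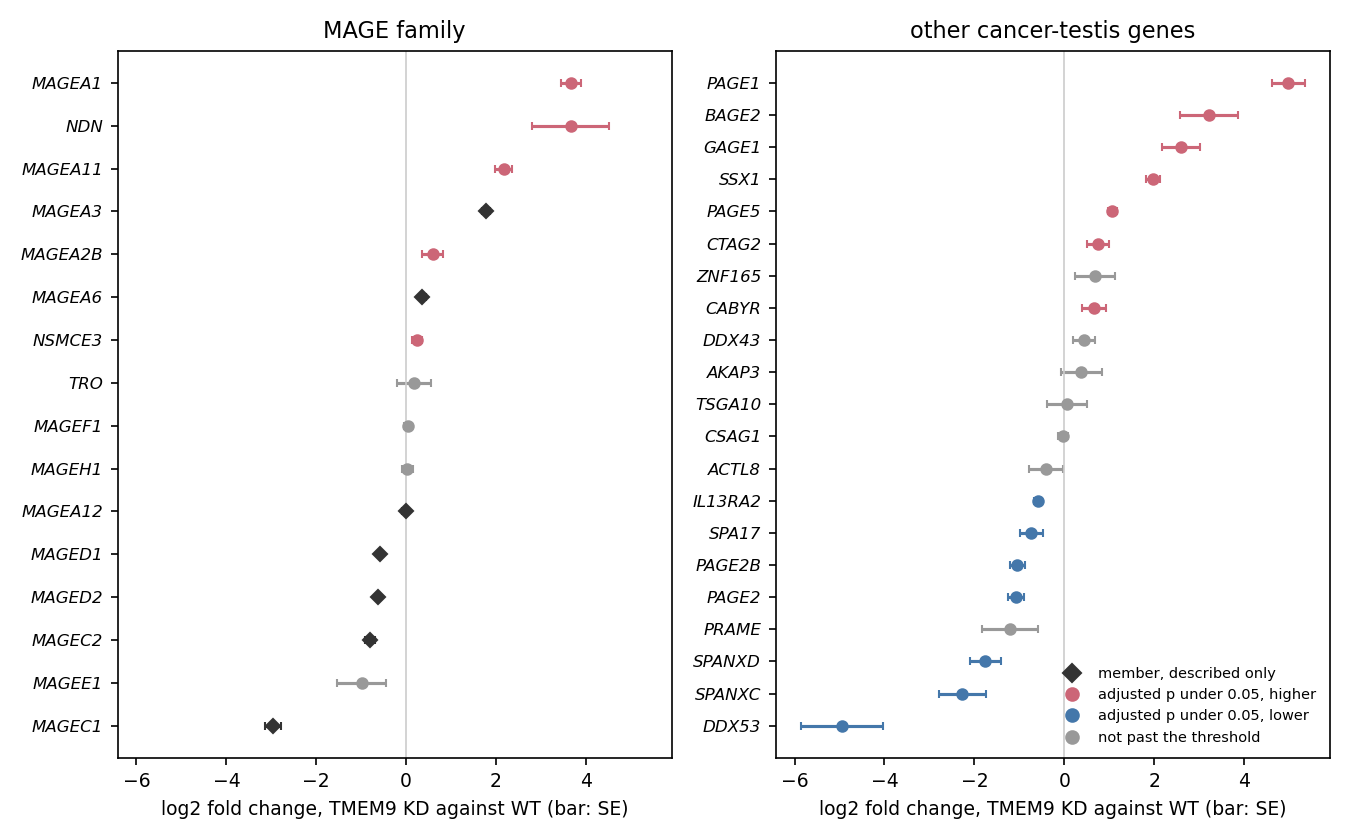
Fitted log2 fold change of TMEM9 KD against WT with SE bars for genes that passed the filter, MAGE family on the left (without MAGEB2, whose WT libraries held 1 count in all) and other cancer-testis genes on the right; diamonds are genes of the 10, which carry no test, red and blue circles are genes with an adjusted p under 0.05, and grey circles did not pass. MAGEC1 lies at -2.95, MAGEA12 at -0.01, MAGEA3 at 1.78 and MAGEA1 at 3.67, while the points of NDN and DDX53 rest on a group with 2 counts or 1 count and depend on the fit's prior.

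The make-up of the type I transcripts changed with these shifts. The 23 MAGE-A, -B and -C genes of the table summed to 216 and 224 CPM in WT and 342 and 357 CPM in TMEM9 KD, a ratio of 1.59. Without MAGEB2 the ratio was 1.39. MAGED1 and MAGED2 together went the other way, from 295 and 296 CPM to 191 and 199 CPM, a ratio of 0.661. As a share of the type I counts, MAGEB2 went from 0.0309% and 0% to 12.1% (exact Clopper-Pearson 95% interval 11.3 to 13.0) and 12.5% (11.7 to 13.4), where 0 of 4030 counts allows up to 0.0915%. MAGEA3 went from 12.9% (11.8 to 14.1) and 13.0% (11.95 to 14.05) to 29.4% (28.2 to 30.6) and 26.9% (25.8 to 28.0). MAGEA12 took 30.9% (29.3 to 32.5) and 31.6% (30.2 to 33.1) of type I counts in WT but 19.9% (18.8 to 20.9) and 19.2% (18.3 to 20.2) in TMEM9 KD, although its own level differed little. MAGEC1 went from 9.25% (8.27 to 10.3) and 8.88% (8.02 to 9.80) to 0.733% (0.526 to 0.993) and 0.737% (0.540 to 0.982).

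**Figure D3:**
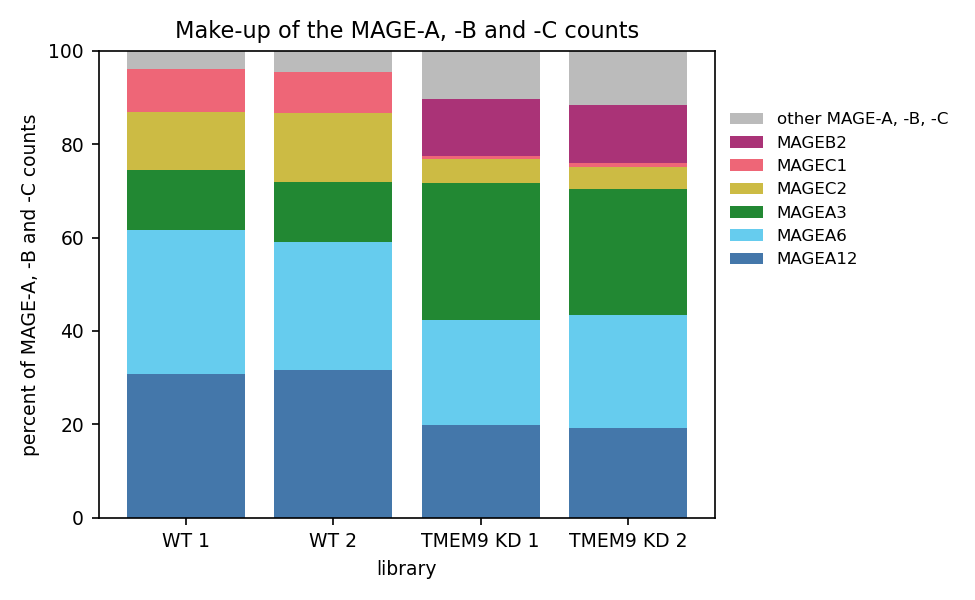
Share of the counts of all MAGE-A, -B and -C genes taken by each gene, as stacked percentages for each of the 4 libraries. MAGEB2 takes 12.1% and 12.5% in TMEM9 KD, and MAGEC1 shrinks from 9.25% and 8.88% to 0.733% and 0.737%.

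Per kilobase of exon (GENCODE 29, which may not be the annotation used for counting), genes can be compared with each other. In WT, MAGED2 (36.9 CPM per kb), MAGEA12 (35.4) and MAGEA6 (34.3) came first of the family, and neighbours in that order overlapped between libraries. MAGED1 followed at 31.1 and MAGEF1, which is not of the 10, at 24.9. Next were MAGEA3 (15.6 and 16.3) and MAGEC2 (13.5 and 16.5), which overlapped. MAGEH1 (11.6) and NSMCE3 (5.36) came before MAGEC1 at 4.67 CPM per kb. In TMEM9 KD, MAGEA3 was first at 55.0 CPM per kb, above MAGEA6 at 43.9 and MAGEA12 at 35.2, with no overlap among these 3. MAGEB2 followed at 26.8, in the range of the broadly expressed MAGEF1 at 25.7 CPM per kb, which it overlapped. MAGED2 and MAGED1 came next at 24.0 and 20.7. MAGEH1 (11.9) and MAGEA1 (9.75) preceded MAGEC2 at 8.66, and NSMCE3 (6.33), MAGEA11 (4.01) and MAGEA2B (2.52) preceded MAGEC1 at 0.602. MAGEA3 was at rank 6 of the family in WT and rank 1 in TMEM9 KD, which rests on the uncertain division of reads with MAGEA6. MAGEB2 was at rank 4 in TMEM9 KD and at the floor in WT, and MAGEC1 at rank 10 and then 14.

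**Figure D4:**
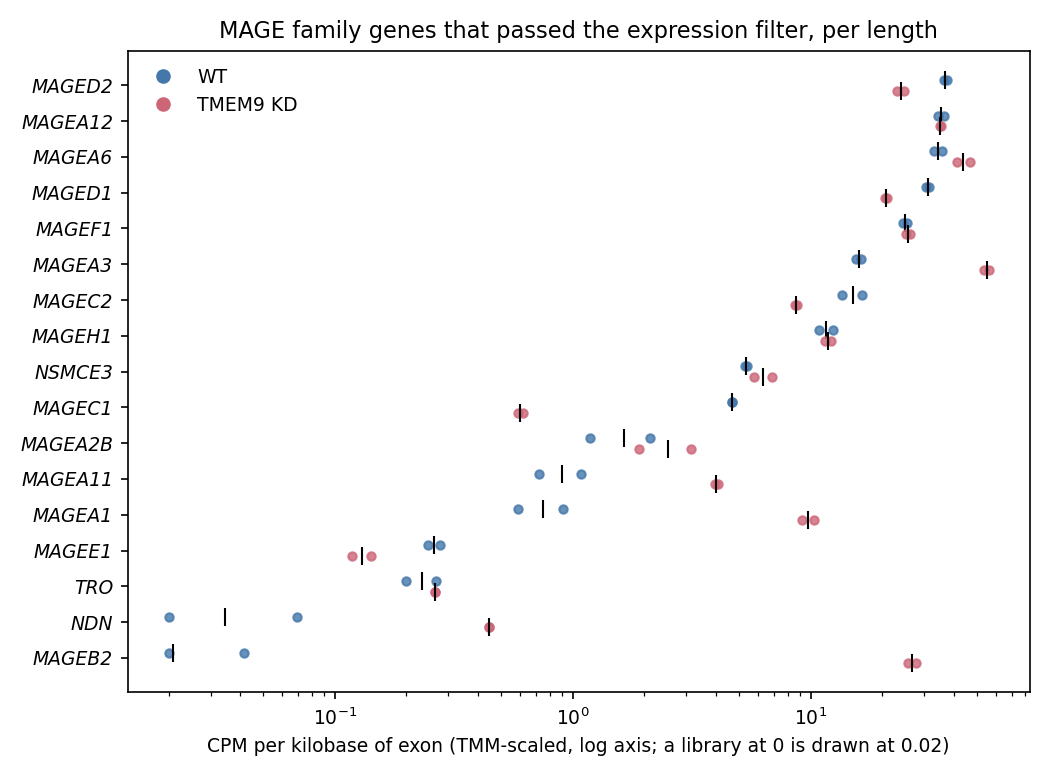
Level per kilobase of exon (CPM per kb, log axis) of the MAGE genes that passed the filter, with a point for each WT and TMEM9 KD library, a bar for each group mean, and libraries at 0 drawn at the left edge. MAGEA3 leads in TMEM9 KD at 55.0 and MAGED2 leads in WT at 36.9 CPM per kb.

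Similar promoters went with different levels. MAGEA3 and MAGEA6, whose 250-base windows are identical, differed 3.44-fold and 1.28-fold between the groups, but the division of reads between these 2 genes is uncertain. MAGEB1, with the promoter most like that of MAGEB2 among those compared, had 6, 2, 9 and 12 counts in the 4 libraries, while MAGEB2 had 1, 0, 678 and 781. MAGEC1 and MAGEC2 were 7.74-fold and 1.74-fold lower. Of the 5 genes with CCGGATGT in a window, MAGEB2 was higher, MAGEA12 overlapped, MAGEC1 and MAGEC2 were lower, and MAGEA4 was near 0.

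The rest of the family was counted as a background for the 10. Of 27 other MAGE genes listed, 25 had a row and 9 passed the filter, 3 of them type I and 6 type II. By the edgeR test with Benjamini-Hochberg adjustment, 5 of the 9 rose (55.6%, against 28.7% of all genes) and 0 fell (against 29%), with 0 lower at an unadjusted p under 0.05 too. NDN, counted among the 5, passed the filter only through its TMEM9 KD libraries. It could thus enter the 9 only as a gene that rose. MAGEE1, not called, passed only through its WT libraries and could enter the 9 only as a gene that was lower. DESeq2 called 3 higher and 0 lower. MAGEA1, the founding antigen of the family, rose from 15 and 28 counts to 257 and 308 (log2 fold change 3.67, SE 0.217, adjusted p = 2.54e-28). MAGEA11, another X-linked type I gene, rose from 56 and 45 counts to 224 and 246 (2.17, SE 0.191, adjusted p = 5.83e-18). Their means in TMEM9 KD, 16.7 ± 1.38 and 13.9 ± 0.291 CPM (SD, n = 2), lay under that of MAGEB2, 43.1 ± 2.36 CPM. NDN, an imprinted type II gene, went from 2 and 0 counts to 14 and 15 (ratio 14.1, exact Clopper-Pearson 95% interval 3.57 to 122). Its fitted log2 fold change of 3.66 moved to 2.61 without WT replicate 2. MAGEA2B rose from 43 and 92 counts to 75 and 133 (0.59, adjusted p = 0.0235), but its groups overlapped. DESeq2 did not call it (adjusted p = 0.168), nor did edgeR when WT replicate 1 (adjusted p = 0.457) or TMEM9 KD replicate 2 (adjusted p = 0.63) was left out. Of its 50-base words 88.1% occurred in another gene, mostly MAGEA2. NSMCE3, a subunit of a DNA repair complex, rose by 0.24 (adjusted p = 0.0447), a call lost under several alternatives. MAGEF1, MAGEH1, TRO and MAGEE1 did not pass the test. MAGEE1 had 15 and 16 counts in WT and 7 and 9 in TMEM9 KD, without overlap (log2 fold change -0.99, SE 0.549, adjusted p = 0.117). Of the 16 that did not pass the filter, 10 had counts, with at most 12 in a library, and 6 had none.

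Cancer-testis genes outside the family moved in both directions. Of 70 that were measured, 21 passed the filter, and 7 rose and 7 fell (66.7%, against 57.7% of all genes), with a median log2 fold change of 0.06. Those that rose included PAGE1 (from 7 and 2 to 162 and 140 counts, log2 fold change 4.99), BAGE2 (3.22), GAGE1 (2.60) and SSX1 (1.98). Those that fell included DDX53 (20 and 17 to 0 and 1 counts), SPANXC (-2.26) and SPANXD (-1.75). Of these, PAGE1, BAGE2 and GAGE1 passed the filter only through TMEM9 KD, and DDX53 and SPANXC only through WT. With a mean of at least 5 CPM required, 2 rose and 3 fell. Male germ cell markers were at or near 0 in both groups. The 8 genes summed to 2.48 and 1.19 CPM in WT and 1.82 and 1.11 in TMEM9 KD, scaled to the library total alone. PRM1 and TNP1, defining genes of maturing sperm, had 0 counts.

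Genes of DNA methylation and gene silencing moved in both directions. The list was broad and not all of it silences genes. It also held TET1, TET2, TET3 and TDG, which act in the removal of methylation, and the transcription factors SP1, ETS1 and ETS2. Of 41 measured, 14 rose and 13 fell (65.9%, against 57.7% of all genes), with a median log2 fold change of 0.03. With library size alone for scaling, 18 rose and 9 fell, and without WT replicate 2, 8 fell. KDM5B, a histone demethylase, fell by 1.35 on the log2 scale (adjusted p = 1.63e-28), DNMT3A, a DNA methyltransferase that sets new marks, fell by 1.19 (adjusted p = 5.30e-10), and MPHOSPH8, a subunit of the HUSH silencing complex, fell by 0.92 (adjusted p = 1.16e-16). EZH2, the Polycomb methyltransferase, fell by 0.67 (adjusted p = 1.03e-09). DNMT1, which copies methylation at replication, rose by 0.41 (adjusted p = 1.15e-09), MBD1, which binds methylated DNA, rose by 0.65 (adjusted p = 6.78e-13), and MGA, of a Polycomb-related repressor, rose by 0.59 (adjusted p = 5.72e-09). No measurement here links any of these to a MAGE gene.

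Of 20 known partners and substrates of MAGE proteins, 18 passed the filter, and 6 rose and 4 fell (55.6%, against 57.7%). NGFR, the receptor that MAGED1 binds, was almost lost: it fell from 655 and 738 counts to 7 and 8, a log2 fold change of -6.56 (SE 0.209, adjusted p = 1.57e-48). E2F1, a cell cycle transcription factor, rose by 0.89 (adjusted p = 4.83e-17). Of RING ligases, PJA1 fell by 0.61 (adjusted p = 1.42e-06) and TRIM27 rose by 0.37 (adjusted p = 4.94e-06). TRIM28, the ligase of MAGEA3, MAGEA6 and MAGEC2, rose by 0.43 (adjusted p = 4.79e-11), and PRKAA1, the AMPK subunit that MAGEA3 and MAGEA6 direct it to, fell by 0.32 (adjusted p = 1.42e-05). G3BP1, whose translation MAGEB2 limits, had a log2 fold change of 0.00 (adjusted p = 0.975). RNA counts do not show protein levels.

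The nearest protein-coding genes outside the MAGE family were taken on each side of the 10, skipping MAGE genes. Of 9 such neighbours that were tested, 3 rose, 3 fell and 3 did not pass the test. CSAG1, which lies in the run of MAGEA3, MAGEA12 and MAGEA6, had a log2 fold change of -0.03 (adjusted p = 0.839), and beyond MAGEA6 CETN2 fell by 0.44 (adjusted p = 5.15e-05) while NSDHL rose by 0.35 (adjusted p = 0.00504). Beside MAGED2, GNL3L rose by 0.89 and APEX2 by 0.53 (adjusted p = 1.09e-13 and 1.71e-07), opposite to MAGED2 itself. SPANXD, the nearest gene outside the family on the lower-coordinate side of MAGEC1 and MAGEC2, fell by 1.75 (adjusted p = 4.51e-06), and GABRE, beside MAGEA4 and MAGEA10, fell by 0.85 (adjusted p = 8.14e-12). The neighbours of MAGEB2 outside the family were low, with IL1RAPL1 at 3, 2, 10 and 7 counts and the other 3 at no more than 3 in a library. Within the family, MAGEB3, MAGEB4 and MAGEB1 lie closer to MAGEB2, and had at most 2, 0 and 12 counts in a library. Of 488 tested X-linked genes, 24.6% were higher and 33.8% lower, with a median of -0.09.

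By the distance of log2 CPM over the 4 libraries, the genes most like MAGEB2 were ANXA3 (2.21), GFRA1 (2.61) and NTF3 (3.01). Since they were chosen by this distance, being near 0 in WT and well detected in TMEM9 KD follows from the choice. ANXA3 had 2, 6, 439 and 453 counts, GFRA1 had 10, 4, 859 and 943, and NTF3 had 1, 4, 188 and 216.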

How the data were processed

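Counts per gene were deposited by the authors as a table of raw counts with 48162 genes and 4 libraries, and the counts were used as deposited. CASAVA and Bowtie 0.12.2 are listed without roles in the submitters' processing notes, as are hg19 and mm8. Counter, annotation and strand: not given in the sources used here. Members and lists were chosen with earlier results of these data known. The series text calls the profiles retinal, which goes against the labels.

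Tests used edgeR 4.0.16 (quasi-likelihood F test, TMM factors, filterByExpr with minimum count 10 and total 15) in R 4.3.3, with Benjamini-Hochberg adjustment over 14923 genes and a threshold of 0.05. SE was back-calculated from the F statistic. Each library was treated as a replicate. Library pairs differed by more than sampling noise (chi-square over degrees of freedom 2.04 for WT and 4.82 for TMEM9 KD), which does not show that they came from separate cultures. Alternatives were other scalings, filters, DESeq2 1.42.0, limma 3.58.1 voom, a replicate block, summed MAGEA copies and leaving out each library. The edgeR step was tested on simulated data. Named genes were the 10 members, other MAGE genes that passed the filter, TMEM9, up to 6 called genes with the largest changes per list, neighbours, and the 3 genes nearest to MAGEB2. DNMT1, G3BP1, MAGEB1, MAGEB3, MAGEB4, MAGED4 and MAGED4B were added after their values were seen. Promoters came from RefSeq (GRCh38.p14) and 50- and 100-base words from GENCODE 29.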

Additional observations from a re-analysis of the deposited data

How the results depend on the processing

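MAGEB2, MAGEA3, MAGEA6, MAGEC1, MAGEC2, MAGED1 and MAGED2 kept the direction of their log2 fold change under all alternatives run. MAGEA12 changed sign with library size only (0.0626) and when the MAGEA copies were summed (0.62, the value of the sum by construction), and ranged from -0.0591 to 0.0270 over leaving out each library. Leaving out each library gave -0.0112 to 0.399 for TRO and -0.0687 to 0.125 for MAGEH1. The 5 other MAGE genes that rose became 3 with the DESeq2 test, 3 with summed copies, where MAGEA2B is part of the sum, and 3 to 5 over leaving out each library (3 without TMEM9 KD replicate 2). Silencing genes that fell numbered 8 to 13 (8 without WT replicate 2). With a mean of at least 5 CPM, which leaves fewer genes, 2 cancer-testis genes rose and 3 fell. Deviations from the group mean were not correlated between libraries of the same replicate number (correlation 0.00047). That does not show whether these libraries were prepared as pairs. With the replicate block in edgeR 4171 genes were higher and 4266 lower, against 4283 and 4335 without it. NSMCE3 then had an adjusted p of 0.0503 by the edgeR test. With 2 libraries a group, leaving out a library assumes that the lone library varies like the other group. The cause of the other changes was not tested.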
